A study of Mus musculus with 12 samples.

Results

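Glutathione S-transferases are enzymes that join the tripeptide glutathione to reactive compounds so that the products can be excreted, and the liver is one of the tissues richest in them. The 10 genes described here were Gsta3, Gsta4, Gstm1, Gstm4, Gstm6, Gstp1, Gstt1, Gstz1, Gstk1 and Mgst1, taken by gene symbol from the 10607 genes of a table of transcript abundance and ribosome occupancy. They are 10 of the 20 genes of the family in that table. The 6 livers came from 3 litters, each with 1 wild-type mouse (WT) and 1 mouse that lacked Mettl5 (KO). Input RNA of the lysate and ribosome-protected fragments (RPF) were both sequenced from each liver, which made 12 libraries in 4 groups of 3. METTL5 is a methyltransferase of 18S rRNA, and the comparison asks which transcripts are translated differently without it. The KO mice carried a floxed exon 2 of Mettl5 that had been deleted in the whole body with the Cre driver line B6.C-Tg(CMV-cre)1Cgn/J. The line was made in stem cells of a hybrid between C57bl/6 and 129S6 and was then backcrossed to B6. Age and sex of the 6 mice were not used here, and all lysates contained cycloheximide, which stalls ribosomes on their transcripts.

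The cytosolic enzymes are sorted into classes by sequence. Alpha (Gsta), mu (Gstm) and pi (Gstp) enzymes conjugate drugs, plant compounds and products of lipid oxidation, theta enzymes (Gstt) act on small halogenated compounds, and the zeta enzyme (Gstz1) isomerizes maleylacetoacetate in the breakdown of tyrosine. The kappa enzyme (Gstk1) lies in mitochondria and peroxisomes, and Mgst1 belongs to an unrelated family of membrane proteins that carry out the same chemistry in the endoplasmic reticulum and the outer mitochondrial membrane. Several of these genes are known targets of the transcription factor NRF2, and the classes are not spread evenly over the liver lobule or between the sexes.

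Input libraries held 8326325 to 11825643 counted read pairs, of which rRNA genes and Lars2 took 59.9% in KO mouse 1 and 72.4% to 77.7% in the others, and the RPF columns held 4623826 to 9184242 reads. The targeted gene was checked first. Mettl5 had 58.4, 47.8 and 53.1 normalized RPF reads in WT mice 1 to 3 and 8.34, 5.53 and 9.56 in KO mice 1 to 3, so the genotypes did not overlap (log2 fold change −2.64 ± 0.36 (SE), limma adjusted p = 0.00504). All 10 hepatocyte markers had counts in all 6 input libraries, and their summed input level overlapped between the genotypes, with 330716 to 424532 in WT and 336628 to 359718 in KO. In RPF their sums overlapped too and 0 of 10 passed without a litter term (0.489% of all genes tested did). With the litter as a block, Apob (−0.39, adjusted p = 0.0474) and Tdo2 (−0.51, 0.0228) were called lower, 2 of 10 against 2.11% of all genes. When trends with GC content and length of the coding sequence were also removed, 0 of 10 were called (0.979% of all genes). In whole liver, fewer cells of a type and less RNA per cell cannot be told apart.

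None of the 10 genes passed the test in the comparison without a litter term, and 3 of them were lower in KO ribosome occupancy once littermates were paired, of which 1 was still called when trends with GC content and length of the coding sequence were also removed. In input, 0 of 10 had an edgeR adjusted p under 0.05 (background 0% of 10057 genes tested) and 0 of 10 had an unadjusted p under 0.05 (background 3.46%, and 1.49% lower in KO). DESeq2 called 0 of 10 in input (background 0.00994%), and so did edgeR with the litter block (background 0.0199%). In RPF, 0 of 10 passed with limma, against 0.489% of 8994 genes in either direction and 0.322% lower in KO. Unadjusted, Gsta3, Gstz1, Gstp1 and Gstk1 had a p under 0.05 and were lower, 4 of 10 against a background of 13.4% in either direction and 7.99% lower. At an adjusted p under 0.1, 1 of 10 passed, Gsta3 (background 1.6%), and edgeR on whole reads called 0 of 10 (background 0.734%).

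With the litter as a block, Gsta3, Gstz1 and Gstp1 fell in RPF, 3 of 10 against a background of 3.26% of genes called in either direction and 2.11% called lower. With the GC and length trends removed in the same paired fit, Gstp1 was called and Gsta3 and Gstz1 were not, 1 of 10 against 0.979% of genes in either direction and 0.579% lower. The same 3 genes were called when the RPF columns were fitted alone with the block (background 3.92%, and 2.4% lower). In translation efficiency (TE), the ratio of RPF to input, 0 of 10 passed with or without the block (background 0% in both). Gsta3 and Gstk1 had an unadjusted p under 0.05 in TE and were lower, 2 of 10 against 4.7% of genes in either direction and 2.61% lower, and edgeR on whole reads called 0 of 10 (background 0%). The median log2 fold change over the 10 genes was −0.03 in input, −0.26 in RPF and −0.05 in TE, beside −0.00026, −0.03 and −0.01 over all genes tested. The choice of the genes was made with earlier results of these data known, so these counts describe the list.

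**Figure D1:**
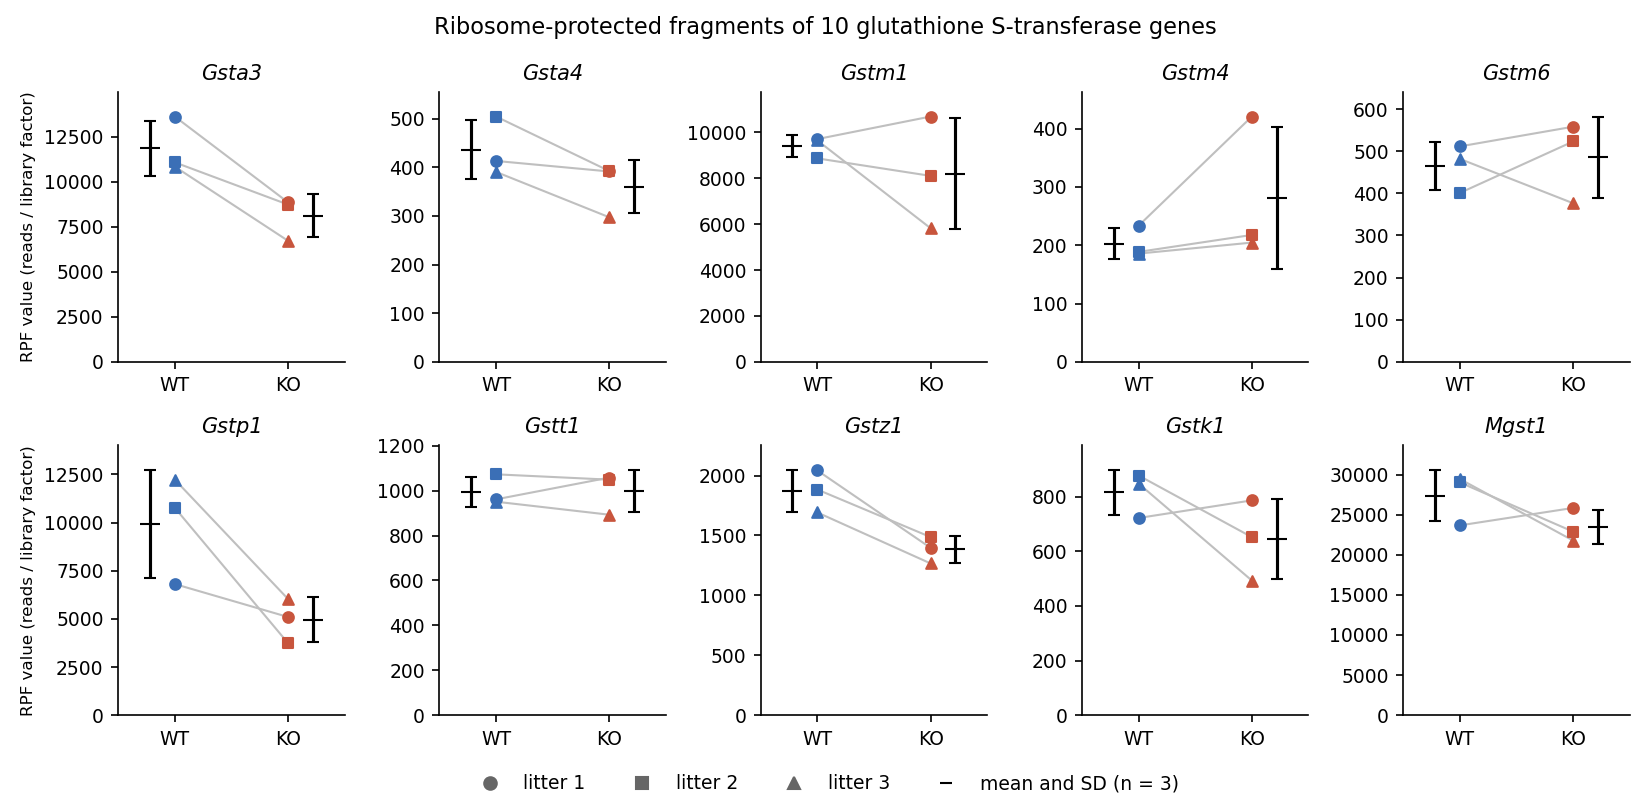
Normalized RPF reads (reads divided by a library factor) of the 10 genes in each mouse, WT in blue and KO in red, with grey lines joining littermates and black bars for the mean and SD of 3 mice. All KO values lie below all WT values for Gsta3, Gstp1 and Gstz1, and the other 7 genes overlap.

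Some of these genes have near-copies, and reads that fit more than 1 place were dropped by the authors, so it was counted how many 30-base windows of each coding sequence, about the length of a footprint, also occur in another gene. Gsta4, Gstz1 and Mgst1 shared none. Gstt1 (1.30%), Gstk1 (2.62%) and Gsta3 (2.84%) shared few, and Gstm4 (10.2%), Gstm6 (30.3%) and Gstm1 (53.5%) shared more. For Gstp1 77.9% of windows were identical in Gstp2, Gstp3 or the pseudogene Gstp-ps, and 93.0% were within 2 mismatches of another family gene. The coding sequences of Gstp1 and Gstp2 are both 630 bases long and match at 618 bases. Gstp2 itself had 4, 1 and 2 input counts in WT and 0, 1 and 1 in KO, and it is not among the genes of the RPF table. The authors' RPF mapping allowed 2 mismatches. For Gstm1 82.9%, for Gstm6 44.7% and for Gstm4 41.0% of windows were within 2 mismatches of another family gene. The values of Gstp1, Gstm1, Gstm6 and Gstm4 are thus uncertain as values of a single gene, and which copy their reads came from was not tested.

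Stretches of aligned exons show where the genes set side by side differ. The closest copies of Gstp1 and Gstm1 are not among them. These are Gstp-ps, within 2 mismatches at 92.5% of the windows of Gstp1, and Gstm2-ps1, at 80.4% of those of Gstm1. Each is the first 90 bases of the longest coding exon that has the same length in the 3 genes shown, read from GRCm38 (mm10) in the direction of transcription, with capitals at the positions where the genes shown differ. In exon 7 of the pi class, Gstp1 (chr19:4035572-4035661, minus strand) and Gstp2 (chr19:4040450-4040539, minus strand) are the same at all 186 coding bases, while Gstp3 (chr19:4057629-4057718, minus strand) differs from Gstp1 at 27 of the 90 bases shown.
Gstp1: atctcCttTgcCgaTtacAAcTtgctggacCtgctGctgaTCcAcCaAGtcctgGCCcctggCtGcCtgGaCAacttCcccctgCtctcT
Gstp2: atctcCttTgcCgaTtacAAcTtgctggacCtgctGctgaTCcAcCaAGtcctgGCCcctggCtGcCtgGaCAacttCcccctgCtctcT
Gstp3: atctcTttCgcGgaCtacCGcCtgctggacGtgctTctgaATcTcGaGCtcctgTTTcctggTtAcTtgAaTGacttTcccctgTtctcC

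In exon 7 of the mu class, Gstm1 (chr3:108014774-108014863, minus strand) differs from Gstm4 (chr3:108042157-108042246, minus strand) and from Gstm6 (chr3:107941014-107941103, minus strand) at 18 of the 90 bases shown, with 26 bases in a row the same as in Gstm1 in either gene.
Gstm1: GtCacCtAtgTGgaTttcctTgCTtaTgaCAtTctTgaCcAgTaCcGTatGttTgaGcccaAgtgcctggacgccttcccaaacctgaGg
Gstm4: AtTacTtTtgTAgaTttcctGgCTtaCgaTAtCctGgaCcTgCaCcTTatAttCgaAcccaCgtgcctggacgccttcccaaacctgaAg
Gstm6: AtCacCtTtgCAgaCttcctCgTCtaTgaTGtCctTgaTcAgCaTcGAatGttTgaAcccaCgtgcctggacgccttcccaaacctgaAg

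Gsta3, which had the smallest RPF p-value of the 10 genes in the fit without the litter block (with the block it was Gstp1), shares fewer windows. In exon 5 of the alpha class, Gsta3 (chr1:21260048-21260137, plus strand) differs from Gsta2 (chr9:78333813-78333902, minus strand) at 40 and from Gsta4 (chr9:78205912-78206001, plus strand) at 36 of the 90 bases shown.
Gsta3: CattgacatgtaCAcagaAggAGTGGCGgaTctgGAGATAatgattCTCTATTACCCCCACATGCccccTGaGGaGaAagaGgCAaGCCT
Gsta2: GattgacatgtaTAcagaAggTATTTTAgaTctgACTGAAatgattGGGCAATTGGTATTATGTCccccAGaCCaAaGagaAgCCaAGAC
Gsta4: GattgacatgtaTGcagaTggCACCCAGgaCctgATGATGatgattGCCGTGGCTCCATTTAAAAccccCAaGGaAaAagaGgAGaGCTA

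**Figure D2:**
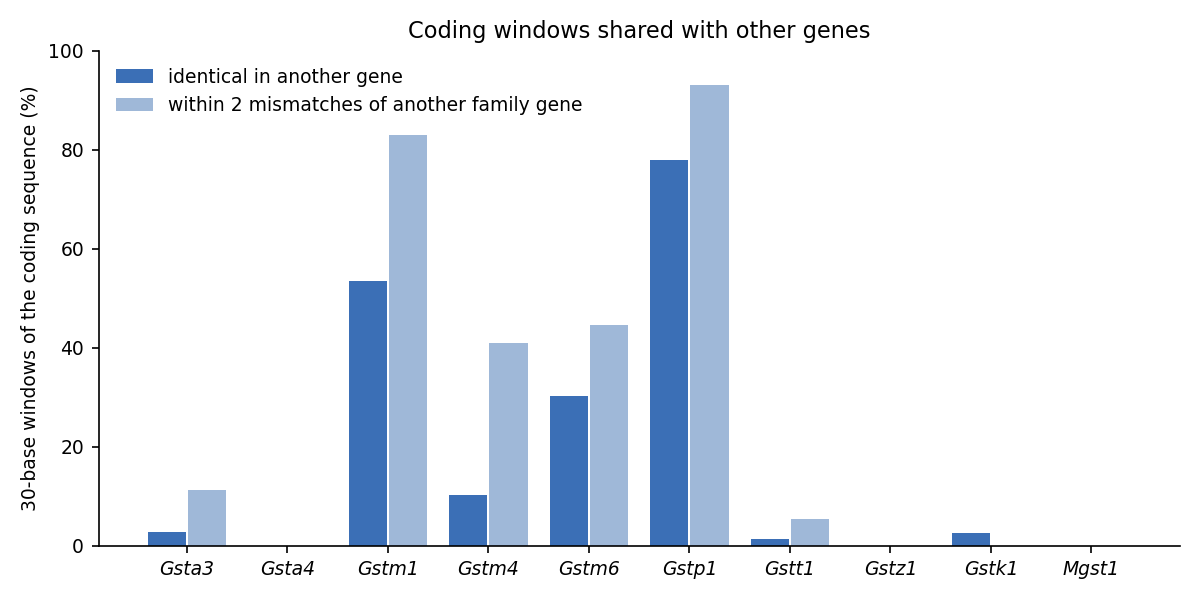
Share of the 30-base windows of each coding sequence (y axis, percent) that occur identically in another gene (dark bars) or lie within 2 mismatches of another gene of the family (light bars). Gstp1 has the highest bars at 77.9% and 93.0%, and Gsta4, Gstz1 and Mgst1 are at 0.

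Gsta3 encodes an alpha class enzyme known in mice for detoxifying the epoxide of aflatoxin. The gene (ENSMUSG00000025934) lies on the plus strand at chr1:21240589-21265661 in mm10. Normalized RPF reads were 13631, 11086 and 10850.5 in WT mice 1 to 3 and 8865, 8741 and 6729 in KO mice 1 to 3. Every KO liver was below every WT liver, and the ratio of the KO mouse to its littermate was 0.650, 0.788 and 0.620 in litters 1, 2 and 3. The RPF change was −0.55 ± 0.14 (SE) on the log2 scale, with a 95% interval of −0.85 to −0.25 and an adjusted p of 0.0885, or 0.017 with the litter block and 0.0635 with the block and the GC and length trends removed. Leaving out KO mouse 1 also brought it under the threshold (−0.62, adjusted p = 0.0403, background 2.54% of genes called and 1.36% called lower), whereas leaving out KO mouse 3 moved it to −0.42 with an adjusted p of 0.455. Transcript levels of Gsta3 were alike in mean but wider in KO. Normalized input reads were 3166, 3451 and 3169 in WT and 2886, 3639 and 3054 in KO, in overlapping groups (−0.01, 95% interval −0.31 to 0.29). The ratio of RPF to input was 4.31, 3.21 and 3.42 in WT and 3.07, 2.40 and 2.20 in KO, again without overlap, and the TE change of −0.51 ± 0.20 had an adjusted p of 0.998.

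Gsta4 is the alpha enzyme specialized for hydroxynonenal, a product of lipid peroxidation, and its gene (ENSMUSG00000032348) lies at chr9:78182774-78209349 on the plus strand. It was read far less than Gsta3, with 413, 504 and 390.4 normalized RPF reads in WT and 391, 392 and 297 in KO. Each KO mouse was below its littermate but the groups overlapped, and the RPF change of −0.28 had a 95% interval of −0.64 to 0.09. Input pointed the same way, with 171, 146 and 152 in WT and 117, 149 and 97.5 in KO (−0.33, interval −0.73 to 0.06), so TE lay near 0 at 0.10 (interval −0.41 to 0.62).

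Gstz1 carries the isomerase step of tyrosine breakdown and also metabolizes dichloroacetate. Its gene (ENSMUSG00000021033) lies at chr12:87147165-87164723 on the plus strand. Normalized RPF reads were 2042, 1883 and 1692 in WT and 1396, 1486 and 1266 in KO. The lowest WT liver was above the highest KO liver, and the ratio to the littermate was 0.684, 0.789 and 0.749. The log2 change was −0.44 ± 0.13 (interval −0.71 to −0.16), with an adjusted p of 0.140, or 0.0403 with the litter block and 0.112 with the block and the GC and length trends removed. Input was 1047, 1260.1 and 1054 in WT and 972, 1144 and 1052 in KO, which overlapped (−0.06, interval −0.36 to 0.23). TE was 1.95, 1.49 and 1.605 in WT and 1.44, 1.30 and 1.20 in KO without overlap, and its change of −0.35 ± 0.19 had an adjusted p of 0.998.

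Gstp1 encodes the pi class enzyme, which in mouse liver is known to be higher in males. The gene (ENSMUSG00000060803) lies at chr19:4035407-4037985 on the minus strand, next to its near-copy Gstp2. It showed the largest fold difference in RPF among the 10 genes, with 6808, 10769 and 12232 normalized reads in WT and 5098, 3741 and 6034 in KO. The groups did not overlap, but WT mouse 1 stood well below the other WT mice, and the ratio to the littermate was 0.749, 0.347 and 0.493 in litters 1 to 3. The mean in KO was 49.9% of the WT mean. On the log2 scale the change was −0.99 ± 0.29 (interval −1.63 to −0.34) with an adjusted p of 0.170. With the litter as a block, limma gave an SE of 0.15 and an adjusted p of 0.00183. The block fits litter effects that are shared by the input and RPF libraries. This SE therefore does not measure the spread of the 3 littermate ratios in RPF, which ran from 0.347 to 0.749. The transcript level of Gstp1 was also lower in KO in the mean, without passing the test. Normalized input reads were 873, 1003 and 1349 in WT and 514, 568 and 982 in KO, lower in each of the 3 litters although KO mouse 3 overlapped with WT mouse 1. The input change was −0.63 ± 0.27 with an adjusted p of 0.999, or −0.65 ± 0.14 and 0.221 with the litter block. Without the filter on low counts edgeR called it in input (−0.62, adjusted p = 0.0422, background 0.125% of 23941 genes). The TE change was −0.31 with an interval of −1.22 to 0.61, and TE was 7.80, 10.7 and 9.07 in WT and 9.91, 6.59 and 6.15 in KO, so the KO mouse had the higher ratio in litter 1 and the lower in the other litters.

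Gstm1, Gstm4 and Gstm6 are mu class enzymes whose genes lie in 1 cluster on the minus strand of chromosome 3, at chr3:108012255-108017973 (ENSMUSG00000058135), chr3:108040408-108044894 (ENSMUSG00000027890) and chr3:107938847-107943749 (ENSMUSG00000068762). Gstm1, the main mu enzyme of the liver, had 9701, 8861 and 9643 normalized RPF reads in WT and 10682, 8099 and 5820.0 in KO. KO mouse 1 was above all WT mice and KO mouse 3 far below them, so the SD was 469 in WT and 2433 in KO, and the change of −0.24 had an interval of −0.59 to 0.11. In input Gstm1 was lower in every KO liver than in any WT liver, with 2218, 2269.5 and 2297 in WT and 2147, 1909.9 and 1738 in KO, and the change of −0.20 ± 0.14 had an adjusted p of 0.999. Non-overlapping input groups with KO below WT were found for Gstm1 and Mgst1, 2 of 10 genes, against 5.6% of genes tested.

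Gstm4 was the only one of the 10 genes with more RPF in the KO mouse of every litter, 1 of 10 against 17.4% of genes tested. It had 234, 189 and 186 normalized RPF reads in WT and 421, 218 and 205 in KO. Most of the difference came from KO mouse 1. Without that mouse the log2 change went from 0.40 (interval −0.20 to 1.00) to 0.07, and with all mice the adjusted p was 0.575. Input overlapped, with 156, 182 and 136 in WT and 226, 169 and 110.3 in KO. Gstm6 had 511, 401 and 482 in WT and 558, 523 and 377 in KO in RPF, a change of 0.05 with an interval of −0.42 to 0.53. Its input was as wide, with 226, 161 and 153 in WT and 148, 279 and 166 in KO (0.16, interval −0.40 to 0.71).

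Gstt1, the theta enzyme that acts on dichloromethane, had the smallest RPF difference of the 10 genes. The gene (ENSMUSG00000001663) lies at chr10:75783813-75798584 on the minus strand. Normalized RPF reads were 961, 1072 and 951 in WT and 1058, 1049 and 893 in KO, a change of 0.01 with an interval of −0.31 to 0.32. Input gave 0.07 (interval −0.28 to 0.42) and TE gave −0.04 (interval −0.49 to 0.40), and the groups overlapped in all of them.

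Gstk1 lies at chr6:42245935-42250447 on the plus strand (ENSMUSG00000029864). It was the only one of the 10 genes whose input was above every WT liver in every KO liver, with 262, 260.2 and 229 in WT and 275, 295 and 275 in KO (0.20 ± 0.14, adjusted p = 0.999; 3.65% of genes tested were separated in this direction). RPF was lower in KO in litters 2 and 3, with 722, 878 and 848 in WT and 787, 652 and 493 in KO. The RPF change was −0.36 ± 0.16 (adjusted p = 0.325) and the TE change −0.53 ± 0.22 (adjusted p = 0.998), the most negative TE value among the 10 genes. Per mouse, TE was 2.75, 3.37 and 3.70 in WT and 2.86, 2.21 and 1.79 in KO, so KO mouse 1 overlapped with the WT mice. Leaving out KO mouse 3 moved the RPF change to −0.18.

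Mgst1, the membrane enzyme, was by far the most abundant of the 10. It lies at chr6:138140316-138156755 on the plus strand (ENSMUSG00000008540) and took 40.3% to 49.6% of all RPF reads of the 10 genes. Input was 8726, 9473 and 7507 in WT and 5965, 7161 and 7312 in KO, which did not overlap (−0.31 ± 0.15, interval −0.62 to 0.01, adjusted p = 0.999). RPF was 23670.1, 29026 and 29451 in WT and 25847, 22888 and 21774 in KO, which did overlap (−0.22 ± 0.14, adjusted p = 0.528). TE was 0.11 higher with an interval of −0.31 to 0.53.

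**Figure D3:**
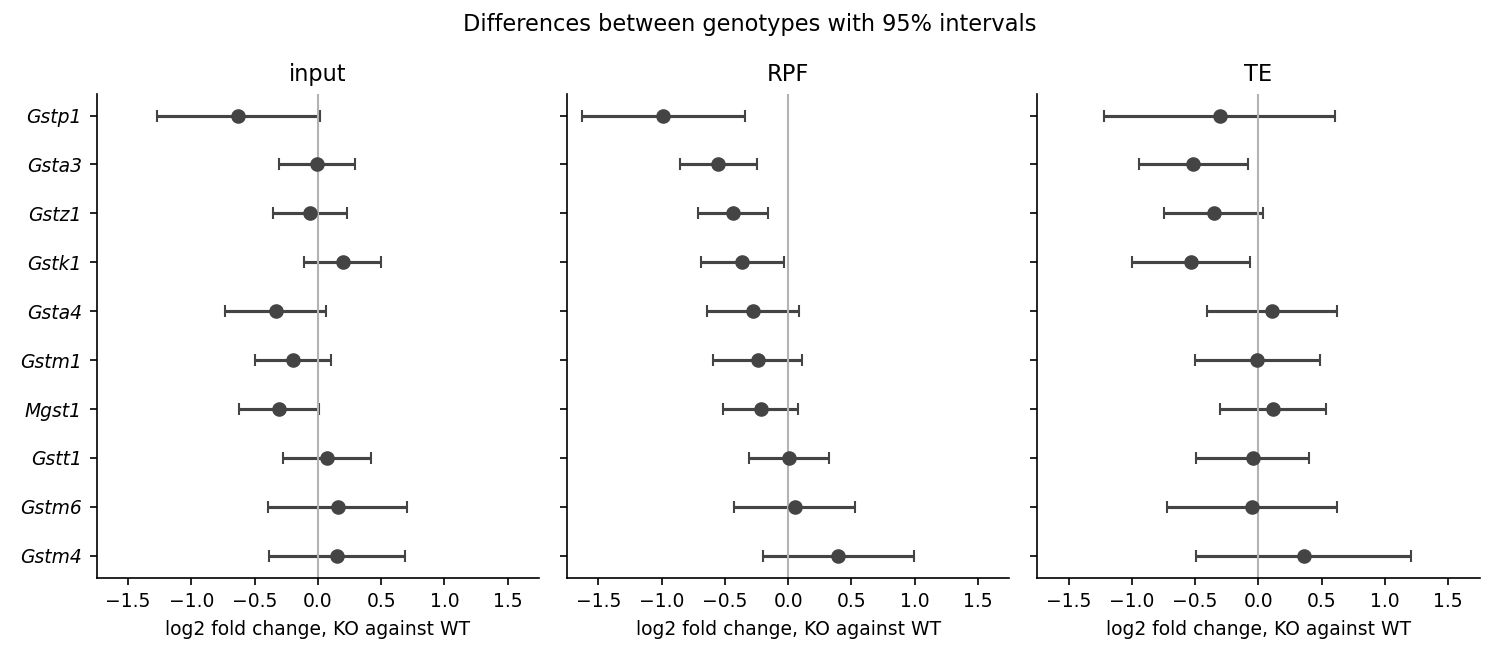
Log2 fold change of KO against WT (x axis) for the 10 genes (y axis, ordered by the RPF change) in input, RPF and TE, with 95% intervals from edgeR for input and limma for RPF and TE, n = 3 mice a genotype. The RPF intervals of Gstp1, Gsta3, Gstz1 and Gstk1 and the TE intervals of Gsta3 and Gstk1 lie below 0 before adjustment for the genes tested.

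**Figure D4:**
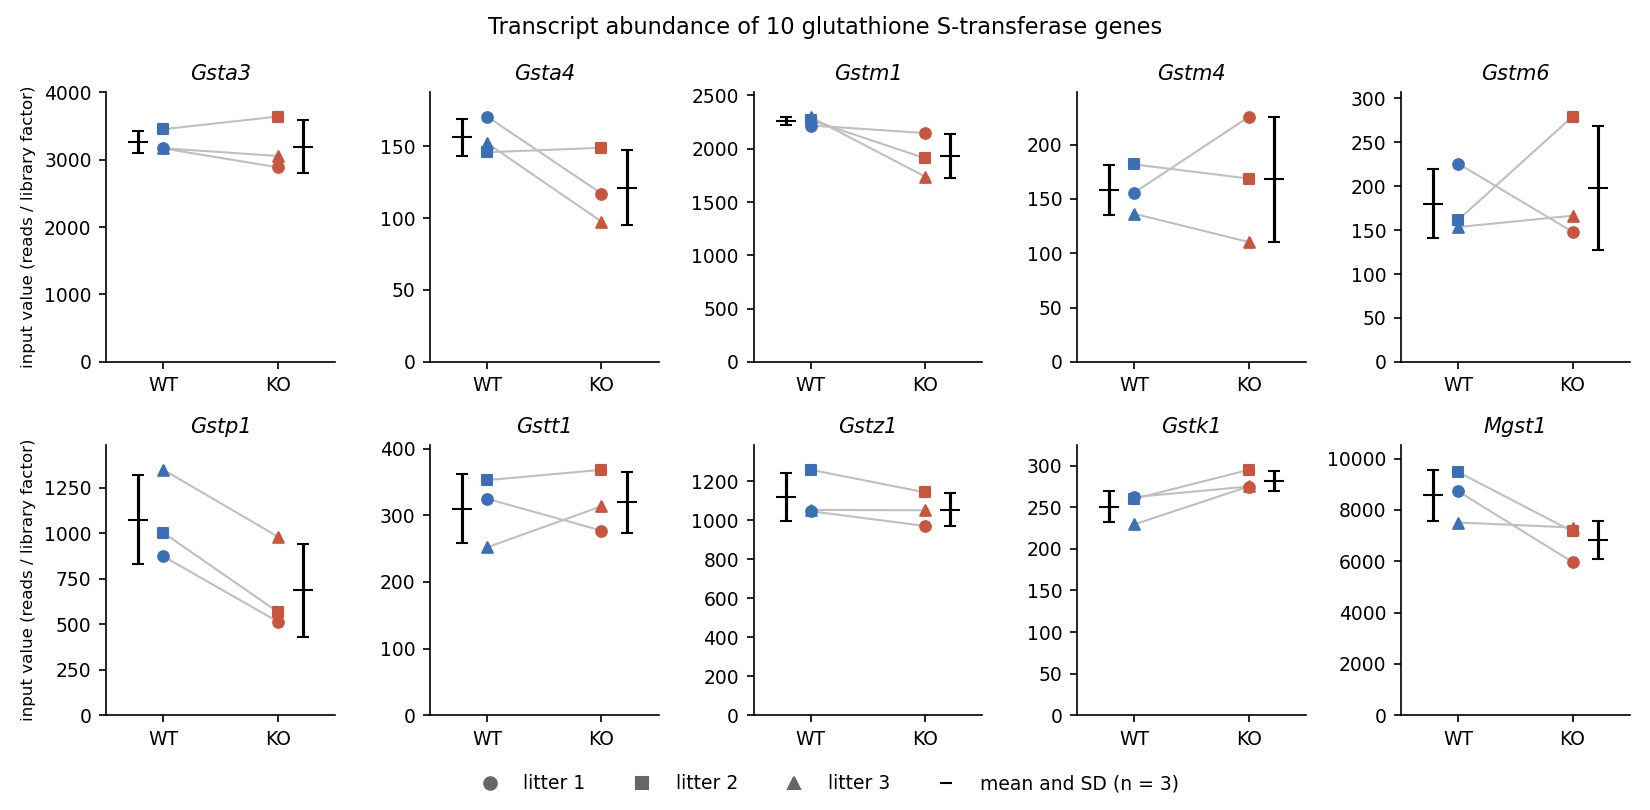
Normalized input reads of the 10 genes in each mouse, drawn as for RPF. Gstm1 and Mgst1 are lower and Gstk1 higher in all KO livers than in any WT liver, and Gstp1 is lower in the KO mouse of each litter.

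Set per length of the longest annotated coding sequence, which need not be the one translated in liver, RPF levels of WT livers spanned a wide range. They went from 39858 normalized reads per kb for Mgst1 to 309.7 for Gstm4. Gsta3 (17882), Gstp1 (15772) and Gstm1 (12844) followed Mgst1, and their ranges overlapped from one to the next. Gstz1 (2889), Gstt1 (1381) and Gstk1 (1204) came next and each was separated from its neighbours. Gstm6 (668) and Gsta4 (654) overlapped. In KO livers Gstm1 (11203) stood above Gstp1 (7869), with overlapping ranges, and the other genes kept their places. Transcript levels per kb of exon gave Mgst1 first (4257 in WT), then Gstm1 (1535), Gsta3 (751) and Gstp1 (695), of which the last pair overlapped. This order depends on the summed exon length of a gene, 4344 bases for Gsta3 and 1473 for Gstm1, which need not be the length of its transcript. Before division the WT mean of Gsta3 (3262) was above that of Gstm1 (2261). Together the 10 genes made up 0.346% to 0.468% of the input reads of the table and 0.993% to 1.41% of its RPF reads. By RPF level before division by length, Mgst1, Gsta3, Gstm1 and Gstp1 lay above 99.8%, 99.3%, 99.1% and 99.0% of the genes tested.

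Litters differed in how many of the genes were lower in KO. In RPF the KO mouse was below its littermate for 4 of 10 genes in litter 1, 8 of 10 in litter 2 and 9 of 10 in litter 3, beside 55.6%, 52.2% and 51.7% of all genes tested. Gsta3, Gsta4, Gstz1 and Gstp1 were lower in all 3 litters, 4 of 10 against 23.8% of genes tested. In litter 1 the 6 genes higher in KO were Gstm1, Gstm4, Gstm6, Gstt1, Gstk1 and Mgst1. The RPF groups did not overlap, with KO below WT, for 3 of 10 genes against 12.9% of genes tested, and with KO above WT for 0 of 10 against 6.97%. For TE the same held for Gsta3 and Gstz1, 2 of 10 against 7.34%, and 0 of 10 lay above WT against 6.09%. In input, 4 of 10 genes were lower in all 3 litters (Gstm1, Gstp1, Gstz1 and Mgst1) against 14.8% of genes tested, and in TE 2 of 10 (Gsta3 and Gstz1) against 16.3%.

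RPF changes in these livers moved with the GC content of the coding sequence. Regressed on GC, RPF values of a library had a higher slope in the KO mouse than in its littermate in each litter, at −0.17, −0.14 and −0.08 log2 units per 10 points of GC in WT and −0.0086, 0.12 and 0.28 in KO. Median RPF change went from −0.23 in the quintile of genes with the lowest GC to 0.21 in the quintile with the highest. The 10 genes spanned 49.5% to 56.1% GC with a median of 51.7%, close to the 52.6% of all genes tested, and none fell into the outer quintiles. Gsta3, Gsta4 and Mgst1 were in the second quintile (median RPF change −0.12), Gstm1, Gstm4, Gstm6, Gstz1 and Gstk1 in the middle quintile (−0.04), and Gstp1 and Gstt1 in the fourth (0.07). Their longest annotated coding sequences, at 630 to 732 bases, were short beside the median of 1452 bases taken in the same way.

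Among genes within 1 point of its own GC, the RPF change of Gstp1 lay above 0.0962% of 1040 genes, that of Gsta3 above 4.69% of 1023 and that of Gstz1 above 6.50% of 985. Gstt1 (42.1%) and Mgst1 (32.8%) lay nearer to the middle, and Gstm4 lay above 94.0% of 999 genes. Once a smooth trend with GC was removed from every library, the RPF change was −1.06 for Gstp1, −0.47 for Gsta3 and −0.41 for Gstz1, with adjusted p of 0.217, 0.192 and 0.251 (0 of 10 called, background 0.156%). With trends in GC and length removed and the litter block, Gstp1 was called at −1.02 (adjusted p = 0.0032), and Gsta3 (−0.43) and Gstz1 (−0.37) were not. Removing the GC trend alone moved Gsta3, Gsta4, Gstz1, Gstk1, Gstm1 and Mgst1 toward 0, and Gstp1, Gstm4, Gstm6 and Gstt1 away from it.

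**Figure D5:**
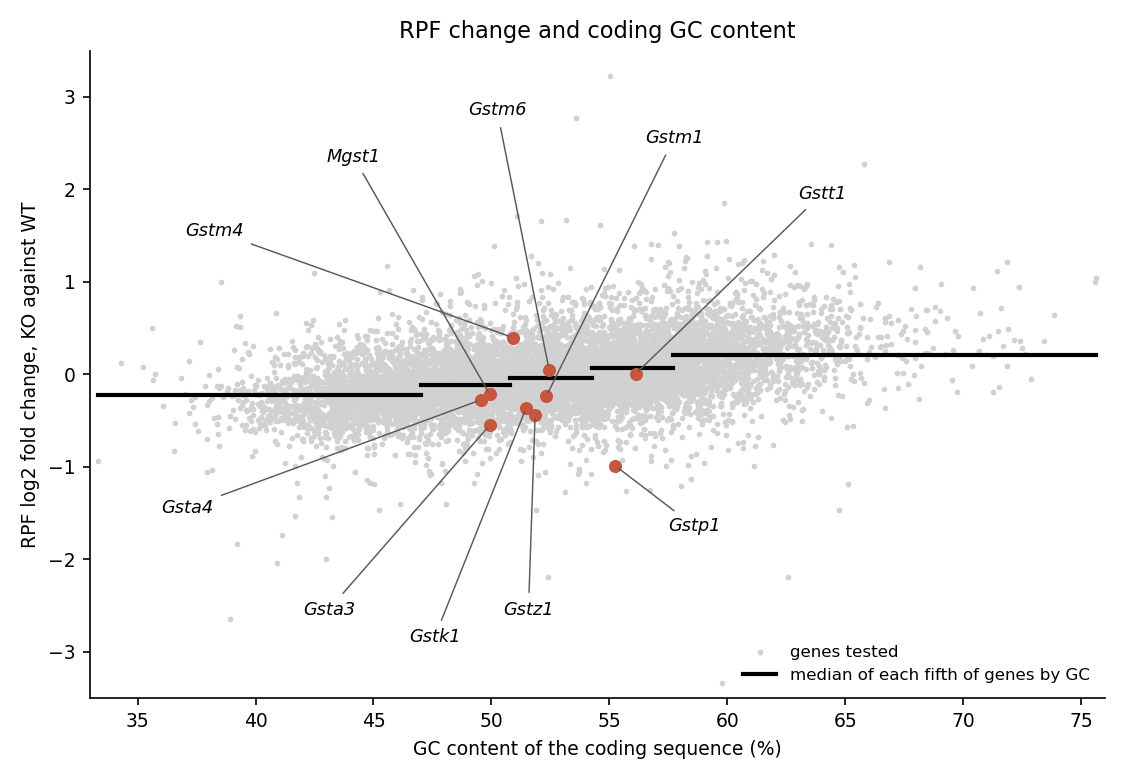
RPF log2 fold change of KO against WT (y axis) against GC content of the coding sequence (x axis, percent), with 8986 genes tested in grey, the median of each quintile of genes by GC as black bars, and the 10 genes in red. The bars rise from −0.23 to 0.21, and Gstp1 lies farthest below the bar of its quintile among the 10 genes.

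The other genes of the family gave no call. Of 16 further glutathione S-transferase genes with a row of input counts, 10 were also in the RPF table and were tested, and 0 of 10 passed in input, RPF or TE, with or without the litter block, while 1 had an unadjusted p under 0.05 in input, 0 in RPF and 1 in TE. Their median RPF change was 0.05. The smallest RPF p-values among them belonged to Mgst3, a microsomal relative of Mgst1, and to the mu gene Gstm7. Their log2 fold changes were 0.52 (limma unadjusted p = 0.103) and −0.28 (0.117). Mgst3 had 105, 70.0 and 51.1 normalized RPF reads in WT and 158, 87.9 and 81.2 in KO, with overlapping groups. Gstt2, another theta gene, had −0.33 and the alpha gene Gsta2 0.43. The 6 genes not tested had at most 4 counts in any input library.

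Genes that make, recycle or export glutathione did not pass either. Of 28 listed genes 20 were tested, and 0 passed in input, RPF or TE without the litter block, with 5 of 20 at an unadjusted p under 0.05 in RPF (13.4% of all genes tested), and median changes of −0.05, 0.07 and 0.03. With the block, 1 of 20 was called in RPF, beside 3.26% of all genes. It was Gpx1, higher in KO, the glutathione peroxidase that reduces hydrogen peroxide. It had 17035, 12586 and 19482 normalized RPF reads in WT and 19712, 21215 and 25806 in KO (0.46 ± 0.16, adjusted p = 0.192, or 0.0415 with the block) and a coding GC content of 58.9%. With GC and length trends removed in the same paired fit, Gpx1 was no longer called, and 0 of 20 were (0.979% of all genes). The synthesis enzymes Gclc (−0.21), Gclm (−0.29) and Gss (−0.46, adjusted p = 0.226) were below 0 in RPF without passing, glutathione reductase Gsr was at 0.21, and the exporter Abcc2 was at −0.37 (adjusted p = 0.319). The summed input of this list was 18052 to 18990 in WT and 16862 to 17477 in KO, without overlap. Its summed RPF was 28803 to 35329 in WT and 35515 to 39786 in KO, also without overlap. Gpx1 was the largest part of both sums in each mouse. Of 19 NRF2 targets 17 were tested and 0 passed in input, RPF or TE with or without the block, with a median RPF change of −0.03 and 1 unadjusted p under 0.05 in RPF. Among them Nqo1 was at −0.31 and the peroxiredoxin Prdx1 at 0.26. With trends in GC and length removed and the litters paired, Prdx1 was called higher in RPF, 1 of 17 against 0.979% of all genes in either direction.

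Some other transcripts differed between the same livers. Of 7 genes known to be higher in male liver, 7 of 7 were below 0 in RPF (median −0.71, beside −0.03 over all genes tested). Mup20 passed, 1 of 7 against 0.322% of all genes called lower, with 1011, 1721 and 1672 in WT and 359, 346 and 517 in KO (−1.83 ± 0.28, adjusted p = 0.012). Hsd3b5 (−0.71, adjusted p = 0.0709), Cyp2d9 (−0.49, 0.104) and Cyp4a12a (−0.94, 0.411) passed with the litter block only. With the block 4 of 7 were called lower, against 2.11% of all genes. When GC and length trends were also removed, 3 of 7 were (Cyp2d9, Cyp4a12a and Mup20), against 0.579% called lower. The summed RPF level of these 7 genes was 34558 to 44331 in WT and 18232 to 31459 in KO, without overlap. Serpina1e was the largest part of this sum in each mouse. Its own RPF overlapped, with 33377, 27782 and 20318 in WT and 24934, 11512.5 and 18813 in KO. In input the sum, of which Serpina1e was the largest part in each mouse, overlapped. Mup20 input was 2700, 3100 and 3514 in WT and 856, 1057 and 1793 in KO, without overlap. With the litter block Mup20 was called lower in input (−1.37, edgeR adjusted p = 0.00221, background 0.0199%). Input of Cyp2d9 did not overlap either, while that of the others did. In input 6 of 7 were below 0, and 7 of 7 with the block. The Y-linked transcripts Ddx3y, Eif2s3y, Kdm5d and Uty had counts in all 6 livers and Xist had 0 in each. The summed level of 8 stellate cell markers, of which 7 were in the RPF table, was higher in KO in both assays, at 985 to 1231 in WT and 1271 to 1378 in KO in input and at 1912 to 2072 in WT and 2706 to 2917 in KO in RPF. Of the 7 tested in RPF, 0 passed without the litter block, against 0.489% of all genes tested. With it 4 (Col1a1, Col3a1, Dcn and Reln) were called higher, against 3.26% of all genes called in either direction. With GC and length trends also removed only Dcn was called, 1 of 7 against 0.979% of all genes. Lrat (−0.17) and Rgs5 (−0.46) were below 0. Summed markers of Kupffer cells, endothelium, cholangiocytes and lymphocytes overlapped in both assays. Erythroid markers were lower in KO in summed input (581 to 757 in WT, 529 to 577 in KO) and overlapped in RPF. Of 7 pericentral and 8 periportal genes tested 0 passed in RPF without the block (0.489% of all genes tested did). With the block the periportal genes Cyp2f2 and Pck1 were called, Cyp2f2 lower and Pck1 higher, against 3.26% of all genes in either direction. Cyp2f2 was still called with GC and length trends also removed, and Pck1 was not (0.979% of all genes). The part of any of these in the values of Gstp1, Gsta3 and Gstz1 was not tested.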

How the data were processed

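Deposited counts of input reads per gene and a deposited table of 12 columns were used. The authors aligned input reads to mm10 with STAR 2.7.3a and counted uniquely mapped reads over exons with featureCounts (version 1.6.0 in the submitters' processing notes, 2.0.3 in the file header). RPF reads were mapped by the authors with RiboToolkit to a single location. Each signal value of the authors' table equals a read number over 1 factor per library, with no length in it, and 100% of its values were whole multiples of 1 read within 0.1 of a read. The authors' log2 fold change, p-value and adjusted p-value columns were not used. Exon length was deposited beside the counts. Every column was matched to a sample through its name.

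Input was tested with edgeR 4.0.16 (TMM, filterByExpr, robust quasi-likelihood), and RPF and TE with limma 3.58.1 in R 4.3.3 on log2(value + 1), a scale that understates changes of low genes, for genes whose mean reached 10 in both assays. A single model of 12 libraries and 4 group means was used. In this model the litter block added litter effects shared by the input and RPF libraries. The model did not pair the input and RPF libraries of a liver, so the SE and intervals given for TE leave that pairing out. Fits of the ratio of each mouse, with or without the litter block, called 0 of the 10 genes in TE (0 of 8994 genes tested). The design assumed normalized values, and edgeR was run on the whole reads beside it. The SE beside an edgeR value was derived from its F statistic. Adjusted p-values (two-sided) are Benjamini-Hochberg over all genes tested. Alternatives included DESeq2 1.42.0. The edgeR run on whole reads called 66 genes in RPF and 0 in TE. Fits were tested on simulated data.

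All 10 genes and the lists were chosen with earlier results of these data known. All 10 were named by rule, with values for at most 6 others per list, and the 5 genes most like the member with the smallest RPF p-value. All 10 passed both filters. CDS properties come from the longest coding sequence per gene in GENCODE vM21. Sequences were read from the GRCm38 genome of RefSeq.

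Equal replicate numbers mark littermates in the labels. Deviations from the group means had a correlation between littermates of 0.082 (litter 1), 0.127 (litter 2) and 0.100 (litter 3) for input, and for RPF of 0.242, 0.144 and 0.195 in the same order. Between WT and KO mice of different litters it was −0.117 to 0.017 for input and −0.24 to 0.081 for RPF. No litter term is named in the paper's methods, hence the fit without it is given first.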

Additional observations from a re-analysis of the deposited data

How the results depend on the processing

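With the replicate block, which pairs the litters, 3 of the 10 genes were called in RPF (3.26% of all genes), and 3 in the RPF columns alone with that block (3.92%), 0 in input and 0 in TE, against 0 in the unpaired fits. Removing GC and length trends together with the replicate block left 1, Gstp1 (0.979%), and ended the calls of Gsta3 and Gstz1. In RPF 1 gene, Gsta3, passed at an adjusted p under 0.1 (1.6%) and without KO replicate 1 (2.54%), and in input 1, Gstp1, without a count filter (0.125%). Leaving out each mouse gave 0 to 1 genes called in RPF and 0 in input and TE. Genes called over the whole table ranged in RPF from 0 without KO replicate 2 to 228 without KO replicate 1, beside 44. The cause of these changes was not tested. Values near 0 changed sign. In input, Gsta3 was at 0.0055 without a count filter and 0.0045 at a mean of at least 50 counts. In RPF, Gstt1 was at −0.0896 with the GC trend removed and −0.0518 with GC and length trends removed and the block. In TE, Gstm1 was at 0.0276 with edgeR on whole reads, 0.0247 with the GC trend removed and 0.0537 with GC and length trends removed and the block, under which Gstm6 was at 0.0122. Leaving out 1 mouse gave −0.10 to 0.0563 for Gsta3, −0.15 to 0.37 for Gstm4, −0.16 to 0.34 for Gstm6, −0.0639 to 0.17 for Gstt1 and −0.12 to 0.0287 for Gstz1 in input, −0.0587 to 0.22 for Gstm6 and −0.0377 to 0.0847 for Gstt1 in RPF, and −0.14 to 0.14 for Gstm1, −0.34 to 0.16 for Gstm6, −0.185 to 0.0659 for Gstt1 and −0.0505 to 0.26 for Mgst1 in TE. The other 274 of 290 values under the remaining alternatives and 153 of 180 with a mouse left out kept direction and side of the threshold. Gstp1 in RPF stayed between −1.24 and −0.80 over the 6 mice left out. With 3 mice a genotype, differences well under the intervals given were not detectable.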

Other observations

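Gsta3 and Gstz1, an alpha enzyme and the isomerase of tyrosine breakdown, had the most similar pattern among all pairs of the 10 genes. Over the 12 libraries, after log2 transformation and centring within each assay, their values correlated with 0.94. The median over the pairs was 0.36, and the lowest value was −0.57 for Gstm4 and Gstp1. Across the whole table, the 5 genes most like Gsta3 were Kpna3 (0.96), an importin, Ndufs1 (0.96), a subunit of respiratory complex I, Cct8 (0.95), a chaperonin subunit, Stag1 (0.95), a cohesin subunit, and Dld (0.94), a dehydrogenase subunit of mitochondria. These points share libraries, depth and genotype, and the coding sequences of the 5 genes have a GC content of 42.2% to 45.1%, beside 49.9% for Gsta3. RPF of Kpna3 was 240, 185 and 184 in WT and 147, 154 and 111 in KO, and its change in normalized input was 0.03.

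Gstp1 and Mgst1 correlated with 0.67 in the same way, and together they took a varying share of the RPF of the 10 genes. Without both, the summed normalized RPF reads of the remaining genes were 28215.5, 24874.5 and 25041.5 in WT and 24158, 21160 and 16079 in KO. Gsta3 and Gstm1 made up most of each sum. Of the remaining genes, Gsta3, Gstm1, Gsta4, Gstz1 and Gstk1 had an RPF change below 0, and Gstm4 (0.40), Gstm6 (0.05) and Gstt1 (0.01) above it.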
